A study of Mus musculus with 16 samples.

Results

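The Hox genes of the mouse and the long noncoding RNAs (lncRNAs) transcribed from among them were followed through 16 capture-sequencing libraries of adult tissue. A GENCODE M21 gene was included if its symbol was that of a Hoxa, Hoxb, Hoxc or Hoxd gene or of a Hox antisense transcript, or if it was Hotair, Hottip or a gene of the Hoxaas series. The rule found 47 of the 40405 genes with an assembled transcript, namely 39 protein-coding genes and 8 lncRNAs. Each assembled transcript was given to the gene with which it shared most exonic bases on the same strand, and the members' 112 transcripts were summed per library. The study enriched ribosome-depleted RNA of untreated adult C57BL/6J mice with oligonucleotide probes before sequencing. An lncRNA CaptureSeq design tiled known and predicted lncRNA loci, and a splice junction CaptureSeq design placed probes beside annotated exon junctions. Both designs were applied to whole brain, cerebellum, cortex, olfactory bulb, heart, liver, kidney and testis, so each tissue had 1 library per design and no replicate. Each nonbrain library pooled organ pieces of the same mouse. The labels did not give sex or whether tissues shared animals. Spike-in RNA (ERCC mix 1 in whole brain, cerebellum, heart and liver, mix 2 in the others) made up 7.81 to 45.6% of the 8930235 to 43889288 fragments per library. Levels are therefore given as FPM, fragments per 1000000 non-ERCC fragments.

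Hox genes encode homeodomain transcription factors that give cells along the head-to-tail axis their position. They stand in 4 clusters, and their order along the chromosome, counted by paralogue group from 1 to 13, follows the order of the body regions in which they are switched on in the embryo, with low numbers toward the hindbrain and high numbers toward the tail, limbs and urogenital tract. Many adult tissues keep part of this pattern, and the noncoding RNAs between the genes include Hotair, from the Hoxc cluster, and Hottip, from the far end of the Hoxa cluster. In GRCm38 the Hoxa members (11 coding genes) stood on chromosome 6, and the others spanned chr11:96194316-96368256 (Hoxb, 10), chr15:102921103-103036852 (Hoxc, 9) and chr2:74668310-74765142 (Hoxd, 9).

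Germ cell markers were scarce in the tissue labelled testis. Of 12 germ cell genes, 0 were highest there in the splice junction design, and Prm1, the sperm protamine, gave 1 fragment, with Tnp1 at 0, and the 12 genes summed to 4.97 FPM. By lncRNA capture 1 of the 12, Sycp3, reached 10 fragments and 9 were at 0, and the sum of 152 FPM, of which Sycp3 made up 151, was the lowest of the 8 tissues. Genes of Leydig and Sertoli cells were not absent. Of 10 such genes 8 reached 10 fragments by junction capture, more than in any other tissue. Of the 10, 2 were highest there, as many as in cerebellum or olfactory bulb. They summed to 23.2 FPM, below liver (29.6) and the brain tissues (42.1 to 73.1) and above heart and kidney. By lncRNA capture they summed to 117 FPM, below cerebellum (180), olfactory bulb (148) and whole brain (136) and above the other tissues. Of 22 keratinocyte and hair genes, 15 were highest there, with a summed level of 16850 FPM against at most 807 in any other tissue, and Krt14, a basal keratinocyte keratin, stood at 3665 FPM. The term tissue labelled testis is therefore used, and the brain comparison is also given without it. The kidney library held collecting duct genes (2035 FPM summed over 16 genes, 9 of them highest there). The hindbrain and brainstem genes, which mark the part of the brain where Hox genes are known to be active, summed to 540 FPM in whole brain, 170 in cerebellum, 33.9 in cortex and 37.6 in olfactory bulb by junction capture, and 10 of 16 were highest in whole brain. Their sum in the tissue labelled testis was higher still, at 672 FPM, of which the choline transporter gene Slc5a7 alone made up 658, with 8 of the 16 at 0. In bulk RNA, fewer cells of a type and less RNA per cell cannot be told apart.

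Hox transcripts were abundant in kidney and in the tissue labelled testis, sparse in heart, liver and whole brain, and close to 0 in cortex and olfactory bulb. In the splice junction design all members together made up 259 FPM in kidney (Wilson 95% interval 253 to 265) and 311 (304 to 317) in the tissue labelled testis. Heart stood at 14.1, whole brain at 12.5 (11.3 to 13.7) and liver at 12.4 (11.3 to 13.5), and these 3 intervals overlapped. Cerebellum gave 0.911 (0.617 to 1.34), olfactory bulb 0.211 and cortex 0.0716, the last from 2 fragments. In the lncRNA design kidney reached 1118 FPM and the tissue labelled testis 529, and olfactory bulb gave 0 fragments, which allows up to 0.170 FPM. The intervals cover counting error only, since amplified fragments are not independent molecules.

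A coding member was called detected at 10 fragments or more in a library. In the splice junction design 25 of the 39 coding members were detected in kidney, 15 in the tissue labelled testis, 9 in liver, 8 in whole brain, 4 in heart, 1 in cerebellum and 0 in cortex and olfactory bulb. By lncRNA capture the counts were 9 in kidney, 10 in the tissue labelled testis, 3 in liver, 2 in heart, 1 in whole brain and 0 in the others. Without transcripts that overlap more than 1 gene, the splice junction count of the tissue labelled testis was 9. By junction capture the detected genes lay in paralogue groups 2 to 6 in whole brain and 7 to 10 in heart. The range was 2 to 10 in liver and 2 to 11 in both kidney and the tissue labelled testis. The detection limit is a count and depends on library size. The heart library was the smallest of this design, at 14309222 fragments against 43889288 in liver. Below the limit heart held, among others, 7 fragments of Hoxa5, 5 of Hoxa6, 4 of Hoxa2 and 3 each of Hoxa3 and Hoxb4. By lncRNA capture the heart range was 2 to 7. The start at group 7 is therefore not read as a lack of lower groups in heart. In kidney all 4 clusters contributed, with 9 of 11 Hoxa, 8 of 10 Hoxb, 3 of 9 Hoxc and 5 of 9 Hoxd genes. The tissue labelled testis had 8 Hoxa genes, 6 Hoxd genes, 1 Hoxc gene and 0 Hoxb genes by junction capture. By lncRNA capture Hoxb2 was detected there, with 260 fragments. Junction capture saw little of Hoxb2 in any tissue, with 10 fragments in kidney against 1844 by lncRNA capture. Paralogue group 13, the most posterior, stood at 0 in all libraries except for 2 fragments of Hoxc13 in the tissue labelled testis and 1 of Hoxa13 in heart, both below 3 fragments, the count that 0 observed fragments still allows.

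**Figure D1:**
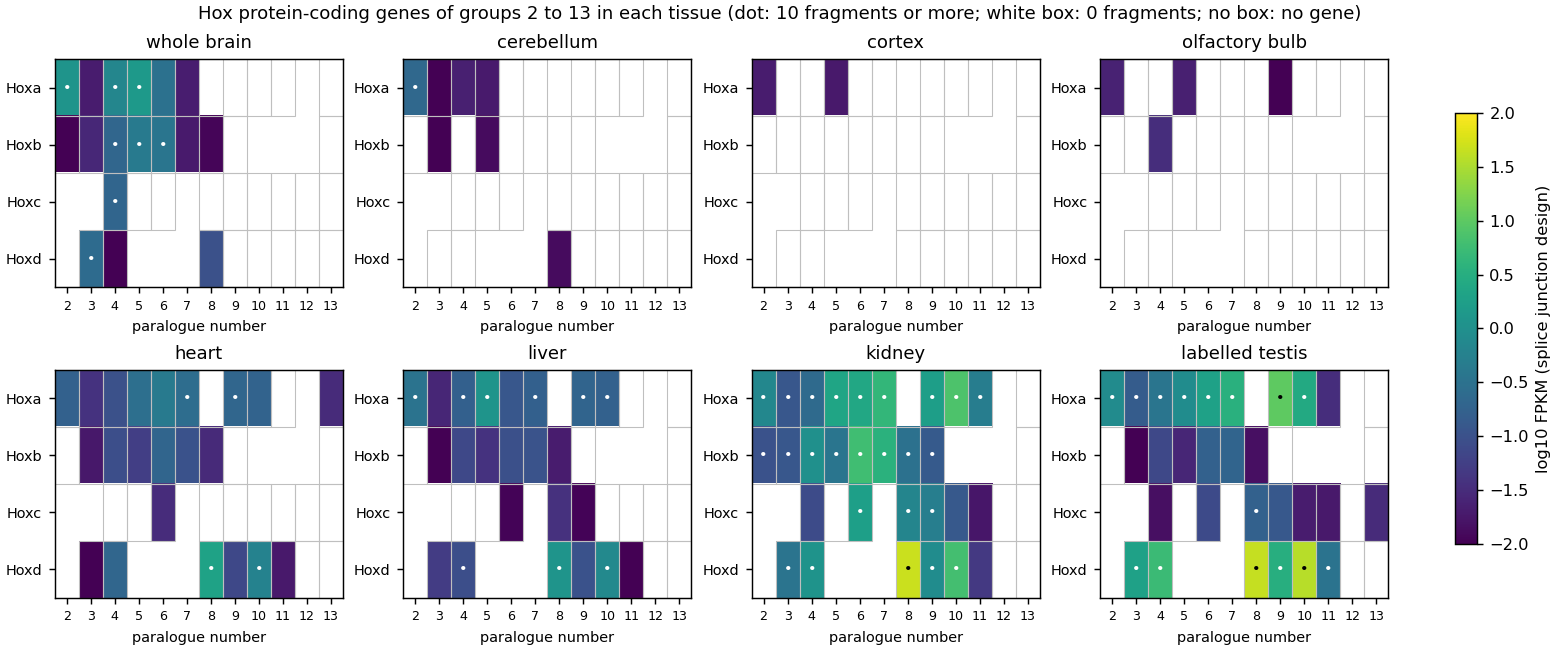
Each panel is a tissue in the splice junction design, with paralogue groups 2 to 13 on the horizontal axis and the 4 clusters on the vertical axis; colour gives log10 of the level per kb of exon (FPKM), and a dot marks a gene with at least 10 fragments. Kidney has dots in all 4 clusters from group 2 to group 11, the tissue labelled testis has them in Hoxa and Hoxd and at Hoxc8, whole brain has them in groups 2 to 6, and cortex and olfactory bulb hold no dot.

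To compare genes with each other, levels were divided by exon length and are given as FPM per kb of exon (FPKM). Junction probes cover only the bases beside a junction, so the division by length is approximate. The mean paralogue number, weighted by FPKM, put the tissues in an order along the clusters. In the splice junction design it was 4.19 ± 0.08 (counting SE) in whole brain, 6.72 ± 0.13 in liver, 7.26 ± 0.18 in heart, 7.77 ± 0.02 in kidney and 8.39 ± 0.02 in the tissue labelled testis. Neighbours in this order were separated by more than their counting errors, and with 1 library per tissue the spread between animals is not known. By lncRNA capture whole brain was again lowest (2.56) and the tissue labelled testis highest (7.10), but heart (5.04) lay below liver (5.61). Of the coding FPKM in whole brain by junction capture, 49.2% lay in groups 1 to 4, 50.8% in groups 5 to 8 and 0% in groups 9 to 13. Kidney had 4.27%, 75.8% and 19.9% in these classes, and the tissue labelled testis 7.75%, 44.8% and 47.4%. Heart had 12.8%, 65.6% and 21.6%, and liver 16.6%, 58.5% and 24.9%. By lncRNA capture the share of groups 1 to 4 was 88.4% in whole brain, 40.4% in heart, 28.9% in liver, 14% in kidney and 3.43% in the tissue labelled testis. Outside brain the share of groups 9 to 13 was lower than by junction capture. It was 2.81% in heart, 5.13% in liver, 3.24% in kidney and 12.8% in the tissue labelled testis. Single genes weighed heavily in that design. Hoxb2 gave 89 of the 103 coding fragments in whole brain, and Hoxa7 gave 9038 of 11451 in kidney.

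The values of coding genes that follow are from the splice junction design unless lncRNA capture is named. Of the 8 coding members detected in whole brain, 5 were anterior genes, of groups 1 to 4. Hoxa2, which patterns the second branchial arch and the hindbrain, gave 69 fragments in whole brain, 11 in cerebellum, 1 in cortex, 1 in olfactory bulb, 4 in heart, 22 in liver, 35.4 in kidney and 39.7 in the tissue labelled testis. Whole brain was highest, and cerebellum was the only other brain tissue with 10 fragments or more, Hoxa2 being the only coding member detected there. Hoxa4 gave 36 fragments in whole brain, 10 in liver, 11 in kidney and 15 in the tissue labelled testis, with at most 2 elsewhere. Its FPKM was 0.681 in whole brain against 0.243 in kidney. Hoxb4, a regulator of blood stem cells, gave 75 fragments in kidney, 18 in whole brain and 7 or fewer elsewhere. Hoxc4 was detected in whole brain alone, with 17 fragments against 6 in kidney and 1 in the tissue labelled testis.

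Among the Hoxd genes of this class, Hoxd3 and Hoxd4 were led by the tissue labelled testis. Hoxd3 gave 213 fragments there, 41.1 in kidney, 35 in whole brain, 8 in liver and 0.05 in heart, the fraction being an estimate shared between overlapping transcripts. Hoxd4 gave 416 fragments in the tissue labelled testis, 96.4 in kidney, 10 in liver, 8 in heart and 1 in whole brain. Whole brain thus held Hoxd3 without appreciable Hoxd4. Hoxd1 reached 1 fragment, in cerebellum, and Hoxb1 gave 0 in all 16 libraries. Hoxb3 gave 15 fragments in kidney and at most 4 in any other library.

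The central genes, groups 5 to 8, were the largest class by FPKM in heart, liver and kidney in both designs. In the splice junction design Hoxd8 was the coding member with the highest FPKM in kidney, the tissue labelled testis, heart and liver, and by lncRNA capture Hoxa7 was highest in the same 4 tissues, at 254 FPKM in kidney against 1.59 for Hoxd8. By junction capture Hoxd8 gave 3672 fragments in kidney, 3163 in the tissue labelled testis, 121 in liver, 70 in heart, 9 in whole brain, 1 in cerebellum and 0 in cortex and olfactory bulb. Its FPKM was 47.0 in kidney (95% interval 45.5 to 48.6) and 43.7 in the tissue labelled testis, against 1.99 in heart and 1.18 in liver. Hoxa5, which shapes the lung, gut and cervical skeleton, had a different profile, with 122 fragments in kidney, 91 in whole brain, 81 in liver, 43 in the tissue labelled testis and 7 in heart. By junction capture it was the coding member with the highest FPKM in whole brain (1.46) and lay close behind Hoxd8 in liver (1.16 against 1.18), and by lncRNA capture Hoxb2 led in whole brain, at 2.05.

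Hoxb6 gave 328 fragments in kidney, 23 in whole brain and 9 or fewer in each other tissue. Hoxb7, whose promoter is widely used to mark the ureteric bud and collecting duct, gave 160 fragments in kidney and 8 or fewer elsewhere, and Hoxb8 gave 23 against at most 2. Kidney therefore stood far above the other tissues for the central Hoxb genes. Hoxb5 did not follow this pattern, with 40 fragments in whole brain, 28 in kidney and at most 4 elsewhere. Hoxc6 gave 126 fragments in kidney and 5 or fewer in any other tissue, and Hoxc8 gave 54 in kidney, 13 in the tissue labelled testis and 4 in liver. Hoxa6 gave 63 in kidney, 45 in the tissue labelled testis and 9 in whole brain, and Hoxa7 gave 370, 258 and 2 in the same tissues, with 18 in liver and 10 in heart.

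Posterior genes, groups 9 to 13, were high in the tissue labelled testis and in kidney and were not detected in brain. Hoxd10, a motor neuron and limb patterning gene, gave 1767 fragments in the tissue labelled testis, 335.5 in kidney, 51.9 in liver, 14 in heart and 0 in all 4 brain tissues. Hoxa9, which acts in blood progenitors and the axial skeleton, gave 1504, 281, 40 and 15 in the same order, with 1 fragment in olfactory bulb. Hoxa10, which patterns the uterus and the lumbar skeleton, ran the other way, with 715 fragments in kidney, 230 in the tissue labelled testis, 21 in liver, 8 in heart and 0 in brain. Hoxd9 gave 181 fragments in the tissue labelled testis and 53 in kidney, and Hoxc9 gave 8 and 36. The group 11 genes, needed in the embryo for the kidney to form, were low in the adult organ, with 32 fragments of Hoxa11, 5.49 of Hoxd11 and 1 of Hoxc11. Hoxd11 was detected only in the tissue labelled testis, with 37.0 fragments.

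Kidney and the tissue labelled testis were compared gene by gene as libraries, with exact 95% intervals of the ratio of FPM for counting error. In the splice junction design Hoxa9 was 5.78-fold higher in the tissue labelled testis (5.08 to 6.58), Hoxd10 5.68-fold (5.05 to 6.41), Hoxd3 5.60-fold, Hoxd4 4.66-fold and Hoxd9 3.68-fold. Hoxd8 was 1.08-fold higher in kidney (1.02 to 1.13), Hoxa7 1.33-fold, Hoxa5 2.63-fold, Hoxa10 2.88-fold (2.48 to 3.36) and Hoxc8 3.85-fold. For Hoxa2, Hoxa3, Hoxa4 and Hoxa6 the interval included 1. Neighbouring genes of a cluster thus differed in direction, Hoxa9 and Hoxa10 among them. These ratios compare libraries and carry no spread between animals.

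The assembled transcripts of several members started at different sites in different tissues. The splits below are estimates of the authors' software, and the genes were chosen after their values were seen. For Hoxa10, 63.3% of the 715 kidney fragments came from transcripts starting at the annotated gene start and 34.4% from a start 5915 bases downstream. In the tissue labelled testis the annotated start gave 3.41% of 230 fragments, the start 5915 bases downstream 45.9%, and another 7530 bases downstream 50.7%. By lncRNA capture the annotated start gave 51.4% of only 11 fragments in that tissue and the start 5915 bases downstream 0%, so the order of the starts differed between designs there, whereas in kidney the annotated start led by lncRNA capture too, with 68.1% of 15 fragments. In liver the distal start gave 41.3% of 21 fragments. The distal and proximal forms splice into the same last exon, as the junctions taken from GENCODE M21 transcripts show, with the 15 bases of the downstream exon in capitals.
Hoxa10 distal: ctgaaatgagtcaagGCAGTTCCAAAGGCG
Hoxa10 proximal: agaaggactccctggGCAGTTCCAAAGGCG
The RefSeq promoters of these forms (GRCm38.p6, 250 bases before to 50 after the start, minus strand) are printed because the tissues differed in their use, with matches on either strand to the TATA box (TATAAA), the CCAAT box (CCAAT) and the Hox-Pbx site (TGATNNAT) in capitals. The distal one at chr6:52240805-52241104 held 12 CpG dinucleotides and 2 GC boxes (GGGCGG), which are not in capitals, and no match to the other motifs. The proximal one at chr6:52234890-52235189 held 21 CpG, 1 TATA box and 1 CCAAT box.
Hoxa10 distal promoter: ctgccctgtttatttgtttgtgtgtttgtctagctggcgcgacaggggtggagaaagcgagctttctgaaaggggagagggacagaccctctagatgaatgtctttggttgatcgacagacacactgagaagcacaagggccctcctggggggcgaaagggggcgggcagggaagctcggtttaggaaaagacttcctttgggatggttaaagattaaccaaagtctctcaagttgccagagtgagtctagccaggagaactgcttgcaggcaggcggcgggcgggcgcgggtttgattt
Hoxa10 proximal promoter: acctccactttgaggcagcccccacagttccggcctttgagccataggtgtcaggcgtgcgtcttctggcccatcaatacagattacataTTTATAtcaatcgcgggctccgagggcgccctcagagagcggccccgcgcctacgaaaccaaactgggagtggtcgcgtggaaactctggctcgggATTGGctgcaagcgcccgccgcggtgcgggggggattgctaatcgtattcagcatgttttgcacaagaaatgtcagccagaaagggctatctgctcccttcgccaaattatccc

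Hoxa2 fragments in whole brain and liver came from its own start, in 69 of 69 and 22 of 22 fragments. All 11 fragments of cerebellum came from a transcript starting 20043 bases upstream, and in kidney and the tissue labelled testis 74.6% and 92.5% came from a start 48508 bases upstream. These long transcripts also hold exon bases of Hoxa3 and splice into the last exon of Hoxa2. Leaving out transcripts that overlap more than 1 gene took the count of detected coding members in cerebellum from 1 to 0. Both junctions below enter the same exon, shown in capitals, at chr6:52163625 on the minus strand.
Hoxa3 to Hoxa2: taaacatctttggagAATCCCTGGAAATAG
Hoxa2 own: gcctcggccacaaagAATCCCTGGAAATAG
The Hoxa2 promoter at chr6:52164782-52165081, the start used in whole brain, is shown with its 4 CCAAT boxes and 1 match to the Hox-Pbx site TGATNNAT in capitals.
Hoxa2 promoter: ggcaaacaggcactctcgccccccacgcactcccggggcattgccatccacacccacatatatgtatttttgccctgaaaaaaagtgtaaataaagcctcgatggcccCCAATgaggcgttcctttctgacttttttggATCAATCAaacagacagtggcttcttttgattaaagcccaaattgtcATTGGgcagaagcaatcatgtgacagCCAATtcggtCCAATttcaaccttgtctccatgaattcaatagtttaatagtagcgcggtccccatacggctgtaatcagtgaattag

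Hoxd10 was also read from its neighbour. A transcript that starts 8478 bases upstream, in Hoxd11, held 28.6% of its fragments in the tissue labelled testis (506 fragments), 16.4% in kidney, 38.0% in liver and none in heart. Its junction skips the opening exon of Hoxd10 and enters at chr2:74694091.
Hoxd11 to Hoxd10: aataaggggaacatgAGGAAATCAAGTCTG
Hoxd10 own: agaaggaaagcaaagAGGAAATCAAGTCTG
In all, 8 assembled transcripts joined 2 or more members, and 5 of them reached 10 fragments in a library. A transcript over Hoxd3 and Hoxd4 gave 363 fragments in the tissue labelled testis and 88.4 in kidney, and made up 87.3% and 91.7% of Hoxd4 there. Reads in the shared exons cannot be divided between the genes with certainty, and the values of Hoxd3, Hoxd4, Hoxd10, Hoxd11, Hoxa2 and Hoxa3 carry that limit. Hoxd8 had no such joining transcript, and its promoter at chr2:74704365-74704664 on the plus strand held 6 CpG and 1 CCAAT box.
Hoxd8 promoter: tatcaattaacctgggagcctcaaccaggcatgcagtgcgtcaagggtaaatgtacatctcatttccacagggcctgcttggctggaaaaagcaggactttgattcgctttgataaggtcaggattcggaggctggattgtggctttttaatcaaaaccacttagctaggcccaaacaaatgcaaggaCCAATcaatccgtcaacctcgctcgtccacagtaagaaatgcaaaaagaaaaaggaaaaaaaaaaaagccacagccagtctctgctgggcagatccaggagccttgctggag

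**Figure D2:**
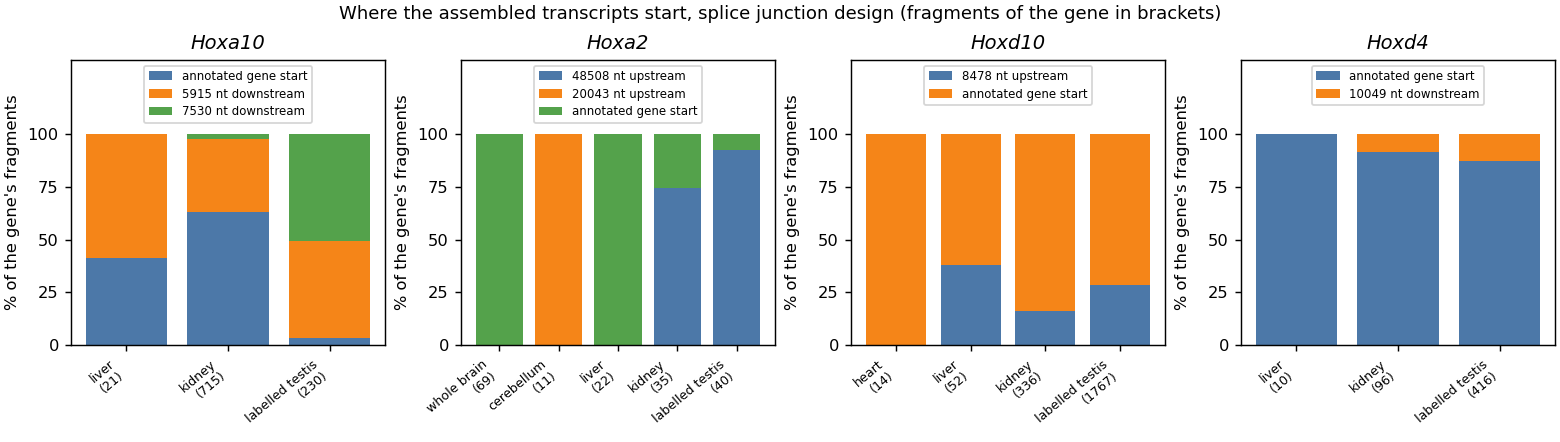
Stacked shares, in percent of a gene's fragments, of the assembled start sites of Hoxa10, Hoxa2, Hoxd10 and Hoxd4 in the splice junction design; brackets give the gene's fragments in that tissue. For Hoxa10 the annotated start carries 63.3% in kidney and 3.41% in the tissue labelled testis, and for Hoxa2 whole brain and liver use the gene's own start while cerebellum does not.

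Across the 28 RefSeq promoters that matched 26 of the 47 members, the median number of CpG was 14.5 per 300 bases, against 7 over 32851 promoters of all genes. CCAAT stood in 16 of 28 (57.1%) against 37.4% of all promoters, TATAAA in 5 (17.9% against 13.6%), GGGCGG in 10 (35.7%, as in all promoters) and TGATNNAT in 4 (14.3% against 8.85%). Motifs were searched on both strands, and a match describes letters, not a bound site.

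Of the 8 lncRNAs, 6 reached 10 fragments in a kidney library or one labelled testis, and Hoxaas2 and Hottip did not. Hoxb3os, antisense in the Hoxb cluster, was the most widespread. In the splice junction design it gave 401 fragments in kidney, 41 in whole brain, 34 in the tissue labelled testis, 14 in liver, 10 in heart, 6 in cerebellum and 0 in cortex and olfactory bulb. In the lncRNA design the values were 884, 21, 79, 29, 21, 9, 0 and 0 in the same order, so kidney was highest by both designs. Kidney exceeded the tissue labelled testis 10.9-fold (7.69 to 16.0) by junction capture and 14.1-fold (11.2 to 18.0) by lncRNA capture. Hoxb5os was far higher in kidney than elsewhere, with 1046 fragments there in the lncRNA design against at most 8 in any other tissue, and 136 against at most 4 in the splice junction design.

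Hoxaas3, antisense in the anterior Hoxa cluster, was shared, with 309 fragments in kidney, 277 in the tissue labelled testis, 47 in liver, 18 in heart, 14 in whole brain and 0 in the other brain tissues in the lncRNA design. Hoxa11os, which is antisense to Hoxa11, gave 125 fragments in kidney and 22 in the tissue labelled testis by that design and 0 in the other 6 tissues. Hotair, which lies between Hoxc11 and Hoxc12 and was described as a partner of Polycomb complexes, gave 40 fragments in the tissue labelled testis, 8 in kidney and 0 elsewhere. It reached 10 fragments only in a library of the tissue labelled testis. Hoxd3os1 was seen by junction capture, with 134 fragments in the tissue labelled testis and 66 in kidney, and 3 at most by lncRNA capture. Hoxaas2 reached 8 fragments, in whole brain, and Hottip 1, in kidney.

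**Figure D3:**
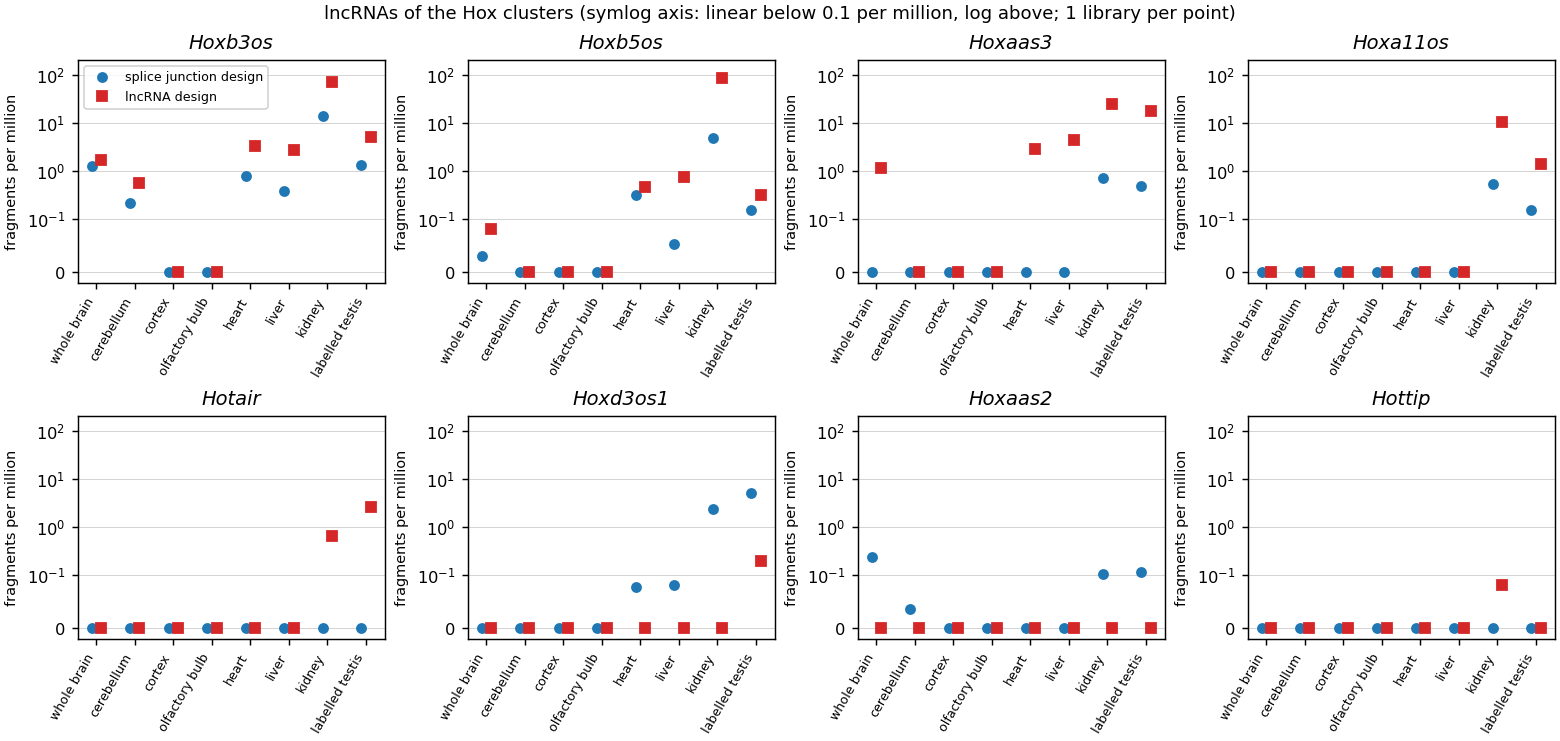
Level in FPM (symlog axis, linear below 0.1) of lncRNAs of the Hox clusters in each tissue, with 1 point per library and the designs in different colours. Kidney is the highest tissue for Hoxb3os and Hoxb5os in both designs, and Hotair appears in kidney and the tissue labelled testis alone.

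Whether brain and nonbrain tissues differed was tested with limma on log2(value + 1) over 19356 genes with a mean value of at least 10, taking the mean of both designs per tissue as 1 unit, with 4 tissues a side. Of the 16 members that passed that filter, 11 were lower in brain at an adjusted p under 0.05 and 0 higher (13 lower and 0 higher at an unadjusted p under 0.05), where 11.6% of all tested genes were lower and 21.5% higher (33.1% in either direction). The median difference was -3.81 on the log2 scale over the 16 members and 0.17 over all tested genes. Scaling the libraries to the same total moved the median of all genes to 0.62 and the calls over all genes from 4161 higher and 2248 lower to 5259 and 1455, with the members still at 11 lower and 0 higher. A member that passes only through the tissues in which it is high had to differ, so the share among the 16 says nothing about all 47. Without the filter 42 members were tested, and 11 were again lower and 0 higher, with 8.22% of all tested genes lower and 17.7% higher. Hoxa6 (limma adjusted p = 0.022) and Hoxa3 (0.030) were then called, and Hoxb5os (0.055) and Hoxb2 (0.058) were not. For 10 of the 16, every brain tissue lay below every nonbrain tissue, against 14.9% of all tested genes. Extraction kit, hybridization pool and number of amplification cycles differed between brain and nonbrain libraries, and cannot be told apart from tissue class. Whole brain takes in the other brain regions, so the brain units are not fully independent, and the p-values do not allow for this.

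The largest differences were those of Hoxa7 (log2 difference -7.25, SE 1.18, adjusted p = 0.0021 by limma) and Hoxa9 (-7.03, SE 1.11, adjusted p = 0.0018). Hoxa7 ranged from 0 to 2.36 over the brain tissues and from 5.83 to 10.9 over the nonbrain tissues, as the mean log2(value + 1) of both designs, so the groups did not overlap. Hoxa9 was at most 0.25 in brain and at least 4.88 outside it. Hoxd8 (-5.64), Hoxb3os (-4.45), Hoxd10 (-4.28), Hoxaas3 (-4.09), Hoxb5os (-4.06), Hoxa10 (-4.05), Hoxd4 (-3.58), Hoxb2 (-3.40) and Hoxd9 (-2.91) also passed, with limma adjusted p of 0.0083 to 0.0421. Hoxb2 overlapped between the groups, since whole brain stood at 3.91 and liver at 3.37. Among those that did not pass was Hoxa5 (-2.71, limma adjusted p = 0.053), at 3.17 in whole brain and 1.81 in heart. Hoxb6, Hoxc9, Hoxa11os and Hoxd3 had differences of -2.36, -2.68, -2.19 and -1.56.

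The call count rested partly on single tissues. It was 7 without cortex and 7 without olfactory bulb, 8 without cerebellum or without kidney, 10 without whole brain or without the tissue labelled testis, 11 without liver and 12 without heart. Hoxaas3, Hoxa7, Hoxa9, Hoxa10, Hoxd10, Hoxd8 and Hoxd4 kept the call in all 8 of these fits.

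**Figure D4:**
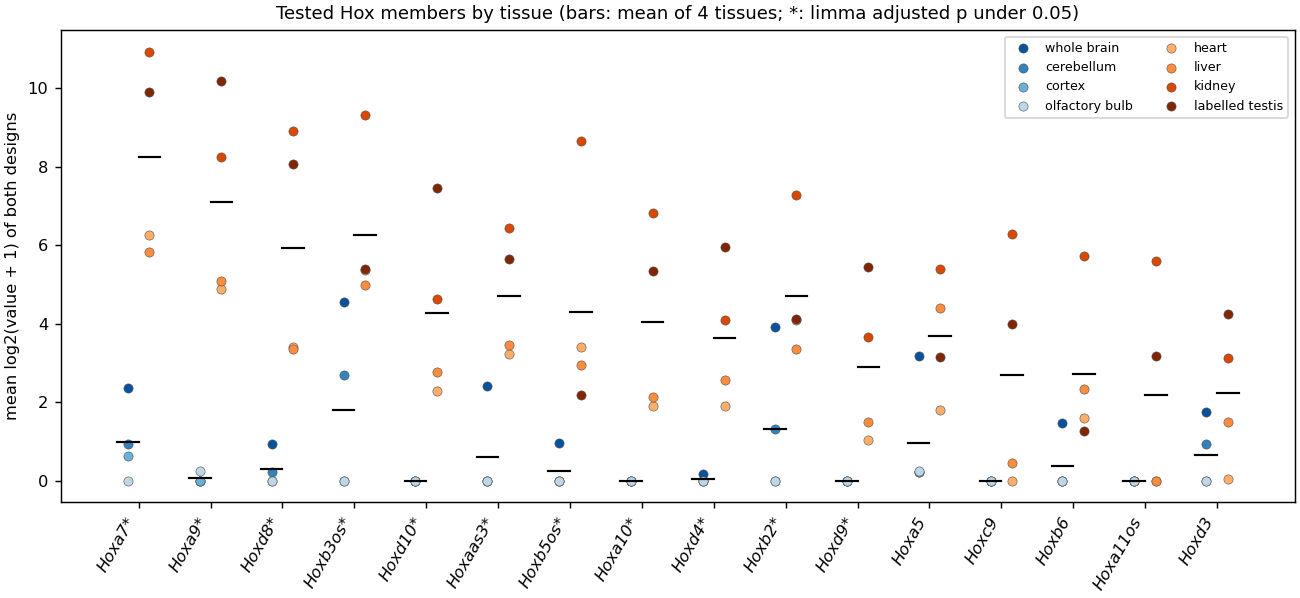
Mean log2(value + 1) of both designs for each of the 16 tested members, with 1 point per tissue and a bar at the mean of 4 tissues for brain and nonbrain; an asterisk marks a limma adjusted p under 0.05. The brain points of Hoxa7 lie between 0 and 2.36 and its nonbrain points between 5.83 and 10.9, whereas whole brain overlaps the nonbrain points for Hoxa5 and Hoxb2.

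The genes that act with or on the Hox genes were counted in the same comparison. Of 9 PBX, MEIS and PKNOX genes, which encode the DNA-binding partners of Hox proteins, all 9 were tested, 3 were higher in brain and 0 lower, where 21.5% of all tested genes were higher. These were Pknox2 (3.77), Meis3 (2.998) and Pbx4 (2.44), as log2 differences with limma adjusted p of 0.0050, 0.0054 and 0.0051. Of 29 tested regulators of Hox genes, 6 were higher in brain and 1 lower, about as many higher as the 21.5% of all genes would give, and nothing particular to either list is read from these counts. Higher were Gdf11 (3.81), a ligand that sets the trunk-to-tail switch, Aldh1a2 (2.72), which makes retinoic acid, Kmt2a (1.69), the methyltransferase that maintains Hox expression, and the Polycomb genes Phc1 (2.22), Phc2 (1.95) and Cbx7 (1.19). The retinoid receptor Rxra was lower (-3.10).

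Most tested members, like most tested genes, differed in level between the probe designs. In the same kind of fit, with the tissues as pairs, 5 of the 16 members were higher by lncRNA capture (40.9% of all tested genes were) and 7 lower (51.7% were, and 92.6% in either direction), at a limma adjusted p under 0.05. Higher were Hoxb2 (log2 difference 5.19, SE 1.15), Hoxaas3 (3.59), Hoxa7 (3.25), Hoxb3os (1.69) and Hoxb5os (1.32). Hoxd8 (-3.24, SE 0.92), Hoxd10 (-2.67), Hoxa5 (-2.07), Hoxa10 (-1.93), Hoxb6 (-1.72), Hoxd4 (-1.65) and Hoxd9 (-1.31) were lower. The median over all tested genes was -1.09. The counts of members higher and lower were not above the shares of all tested genes. Nothing particular to the members is read from these counts. Hoxa7 went from 370 fragments in kidney by junction capture to 9038 by lncRNA capture, and from 258 to 5885 in the tissue labelled testis. In kidney 99.9% of the Hoxa7 fragments by lncRNA capture came from transcripts starting 1461 bases downstream of the annotated gene start, and by junction capture 92.0% did. Hoxb2 went from 10 to 1844 in kidney and from 1 to 89 in whole brain.

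Hoxc9 was not a clear member of the lncRNA design. Of its 144 kidney fragments there, 141 came from a transcript that overlaps Hoxc9 by 1 base, as did 40 of 41 in the tissue labelled testis. Hoxa9 gave, in the tissue labelled testis, 1504 fragments by junction capture and 1494 by lncRNA capture, and the log2 difference over all tissues was 0.28 (limma adjusted p = 0.28). Without transcripts that overlap more than 1 gene, that difference became -1.92 (limma adjusted p = 0.0177).

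Those multi-gene transcripts of Hoxa9 include the hairpin of a microRNA. The Mir196b hairpin lay in an exon of 4 Hoxa9 transcripts, which gave 1474 fragments in the tissue labelled testis and 281 in kidney by lncRNA capture and 637 and 74.7 by junction capture. The Mir10b hairpin lay in introns of 2 Hoxd4 transcripts, with 416 fragments in the tissue labelled testis and 96.4 in kidney by junction capture. The mature 5p arms are shown, from RefSeq, with the seed (bases 2 to 8) in capitals, since the Hoxa and Hoxd copies share their seeds with copies in the Hoxb and Hoxc clusters. Mature small RNA was not measured in these libraries.
mmu-miR-196b-5p: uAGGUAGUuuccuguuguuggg
mmu-miR-196a-5p: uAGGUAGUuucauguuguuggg
mmu-miR-10b-5p: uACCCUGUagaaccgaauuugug
mmu-miR-10a-5p: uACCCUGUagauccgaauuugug
The miR-196 sequences share the seed AGGUAGU and the miR-10 sequences the seed ACCCUGU.

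Heart and liver carried part of the Hox members of kidney and the tissue labelled testis, at a small fraction of the level. By junction capture 0 Hoxb and 0 Hoxc coding genes reached the detection limit of 10 fragments in either. By lncRNA capture Hoxb2 was detected in both, with 61 fragments in heart and 41 in liver, whereas Hoxa11os and Hoxc9 gave 0 fragments in both. As a percent of the summed level in kidney and the tissue labelled testis by junction capture, Hoxd8 was 2.19 in heart and 1.30 in liver, Hoxd10 1.38 and 1.77, Hoxa9 1.75 and 1.60, and Hoxa10 1.84 and 1.66. Some genes below the limit stood at similar percentages. Hoxb6 was 3.28 and 1.58, from 5 and 7 fragments, and Hoxb7 2.63 and 2.71, from 2 and 6. Hoxc6 was 1.69 and 0.58, from 1 fragment each. Hoxa5 stood out in liver, with 36.7. In heart it was 9.21, from 7 fragments, and Hoxa6 was 9.93, from 5. In liver the other members with at least 100 fragments in kidney and the tissue labelled testis together lay between 0.58 and 2.73. Of the genes that mark cell types, those of kidney, collecting duct and keratinocytes had medians close to the percentages of most Hox members. The medians of 9 kidney genes were 1.80 in heart and 1.25 in liver, those of 12 collecting duct genes 2.25 and 2.15, and those of 12 keratinocyte genes 1.59 and 1.75. Endothelial genes had medians of 173 and 28.1, and fibroblast genes 116 and 6.80. The 4 nonbrain libraries of a design shared a hybridization pool. Its part in the heart and liver values was not tested.

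**Figure D5:**
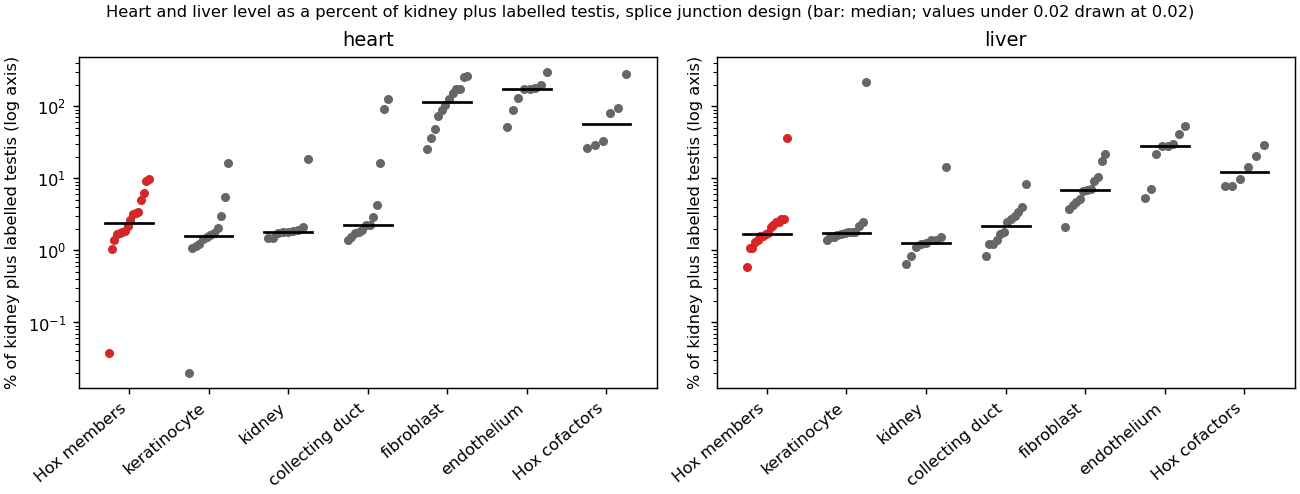
Level in heart (left) and liver (right) as a percent of the summed level in kidney and the tissue labelled testis, splice junction design, on a log axis; each point is a gene and the bar is the median of its group, with values under 0.02 drawn at 0.02. Most Hox members lie between 1 and 10 in heart and near 1 to 3 in liver, at the height of the kidney and keratinocyte genes and below the endothelial genes, and Hoxa5 in liver lies apart at 36.7.

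The clusters also held transcripts outside the member list. Of 19 other GENCODE genes within the spans, 7 reached 10 fragments in a library. Hotairm1, an lncRNA of the Hoxa cluster, gave 1212 fragments in kidney, 123 in whole brain, 81 in liver, 60 in the tissue labelled testis, 34 in heart, 22 in cerebellum and 4 in cortex by lncRNA capture. Whole brain stood above cerebellum and cortex, as it did for Hoxa2. Haglr, in the Hoxd cluster, gave 48 fragments in the tissue labelled testis by lncRNA capture and 13 in whole brain by junction capture. There were 9 assembled models that shared no exonic bases with a GENCODE M21 gene on their strand, and a model within an intron could qualify. All 9 had at least 10 fragments, and all 9 were highest by lncRNA capture, 6 in kidney and 3 in the tissue labelled testis. In a brain library 0 had 10 fragments.

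Of these models, 3 were single exons within chr2:74717413-74720495 on the plus strand. They gave 436 to 540 fragments in the tissue labelled testis and 119 to 153 in kidney by lncRNA capture, and 3 or fewer by junction capture. All 3 lay within the spans of Hoxd3 and Hoxd4 on the same strand. Whether they are unspliced RNA of those genes was not tested. A spliced model of 2 exons and 181 bases at chr11:96291262-96293554, opposite to Hoxb5os, gave 452 fragments in kidney by lncRNA capture and 92 by junction capture, with 7 or fewer in any other library. This model reached into the span of Hoxb6 on the same strand without overlapping its exons. It shared the kidney pattern of Hoxb5os and of Hoxb6.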

How the data were processed

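Total RNA of 8 tissues was ribosome-depleted, made into stranded libraries with ERCC spike-ins, captured with either probe design and sequenced. The authors aligned reads with TopHat2 to GRCm38, assembled and merged transcripts with Cufflinks 2.2.1 guided by GENCODE M4, with expression from Cuffnorm 2.2.1. Deposited values are a normalized signal per assembled transcript (estimated fragments scaled between libraries), not raw counts. In each library, sums over an assembled gene model of up to 20 steps were multiples of a step (within 0.1 of a whole number in 100%), and dividing by it gave the fragments reported here; values of single transcripts are estimates and need not be whole. Transcripts were assigned to GENCODE M21 genes by same-strand exonic overlap. Of the values, limma 3.58.1 (R 4.3.3) tested log2(value + 1) over genes with a mean value of at least 10, with Benjamini-Hochberg adjustment. Per-tissue means of both designs entered the brain comparison, and tissue-paired values the design comparison. The test was also run on simulated data with a fixed spread that was not taken from these tissues. That run does not show how the test behaves at the spread of these tissues. Intervals and floors (3 fragments) cover counting error. P-values measure only the spread between tissues. Named by rule were the 5 coding members highest per length in each tissue, the called members, lncRNAs with 10 fragments or more, the most posterior detected member per cluster and tissue, and group 13; the other members and list genes were named after their values were seen. Members, lists and tests were chosen with earlier results of these data known. Some members and list genes are not reported here. Sequences were taken from GENCODE M21 transcripts and RefSeq. Alternatives covered pseudocount, filters, scaling, multi-gene transcripts, detection limit and leaving out each tissue.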

Additional observations from a re-analysis of the deposited data

Results flagged for a closer look

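Among the 16 tested members, each group of 4 tissues was searched for a tissue far from the others on the mean log2(value + 1) of both designs, and 7 of 32 groups held one. Chance flags about 1 in 20 groups, a rate that does not apply to the 5 of these 7 whose other 3 tissues were at 0, where any value above 0 stands apart. Nor does that rate apply to the brain groups of Hoxa10, Hoxa11os, Hoxc9, Hoxd9 and Hoxd10. Every brain tissue was at 0 for these genes, so their groups count among the 32 but could not be flagged. In the brain group whole brain stood apart for Hoxa5 (3.17, next tissue 0.25), Hoxaas3 (2.41), Hoxb6 (1.47), Hoxb5os (0.97) and Hoxd4 (0.18), with the other brain tissues at 0 for the last 4. The value of Hoxd4 rests on 1 fragment, as does that of Hoxa9 in olfactory bulb (0.25, others 0). In the nonbrain group kidney stood apart for Hoxb3os (9.31, next tissue 5.38).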

How the results depend on the processing

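The count of 11 members lower in brain became 7 with a pseudocount of 10, 6 with a mean value of at least 100 (6 members tested) and 5 from the lncRNA design alone, and ranged from 7 to 12 with a tissue left out. All 16 differences were below 0 in each of the 18 alternatives that tested them. Between designs, the members lower by lncRNA capture numbered 15 of 42 without a filter and 1 of 6 with a mean of at least 100, and 5 to 8 with a tissue left out; those higher numbered 4 to 5. Scaling to the same total moved the median design difference of all genes from -1.09 to -1.91. Only the difference of Hoxa9 reversed, to -1.92, without transcripts over 2 or more genes. Hoxa7 and Hoxa9 kept the brain call in all 18 alternatives.

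At 3 fragments the detected coding members were 13 in whole brain, 12 in heart and 19 in liver. At 30 fragments they were 5, 1 and 4, with 0 in cerebellum. With the limit at 1 FPM they were 5 in whole brain, 4 in liver, 3 in heart and 0 in cerebellum. By lncRNA capture they were 1 in whole brain, 0 in cerebellum, 2 in heart, 9 in kidney and 3 in liver. Without multi-gene transcripts they were 0 in cerebellum and 9 in the tissue labelled testis. The weighted mean paralogue number by lncRNA capture was 2.56 in whole brain, 5.04 in heart, 6.37 in kidney, 5.61 in liver and 7.10 in the tissue labelled testis, and without multi-gene transcripts 4.93 in whole brain, 7.71 in kidney and 8.04 in the tissue labelled testis. The cause was not tested. No paired analysis was possible because the tissues share only replicate number 1; the design comparison pairs libraries by tissue. With 1 library per tissue and design, animals and libraries cannot be told apart.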
